A study of Mus musculus with 12 samples.

Results

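The comparison set glioblastoma cultures of the N/tv-a mouse line, named mGC2_NES, against those of the C/tv-a line, named mGC3_CNP. It was chosen by the sample titles and covers 6 of the 12 arrays of the series, 3 cultures a group, which the series' design text calls independent, with 1 array each. Of 28270 probe sets, each a group of probes read as 1 value, the 21780 with exactly 1 gene symbol (19934 genes) were tested. The question behind the study was whether the cell in which a glioblastoma starts leaves a mark on its cells. All cultures of the series came from mice lacking Arf (Arf-/-), a tumour suppressor encoded at Cdkn2a, so that no group here has Arf. In the tumour groups, chicken DF-1 cells releasing the RCAS-PDGFB-HA virus had been placed into the brain of adult N/tv-a or C/tv-a mice. The lines carry tv-a, the receptor this avian virus needs, under the promoter of Nes in N/tv-a and of Cnp in C/tv-a. Cells were grown adherently under stem cell conditions, with no treatment. Beside each tumour difference stands the difference between 2 neural stem cell (NSC) cultures grown without tumour induction from the subventricular zone of adult mice, 1 of N/tv-a Arf-/- and 1 of C/tv-a Arf-/- mice. They share no sample with the tumour groups. Each tumour group comes from 1 mouse line, so that the promoter and whatever else differs between the lines cannot be told apart. The sources used here do not say whether the cultures of a group came from separate animals, and p-values then measure only the spread between these cultures. The 3 cultures of the G/tv-a line, mGC1_GFAP, entered the fit only to estimate that spread.

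As background, PDGFB is a growth factor ligand whose receptor, encoded by Pdgfra, drives the division of oligodendrocyte precursor cells, and its overproduction in mouse brain gives gliomas that resemble that lineage. Nes encodes nestin, a filament protein of stem and progenitor cells. Cnp encodes a protein of oligodendrocytes and their precursors. The promoter thus sets which cells can take up the virus, and the tumours of both lines receive the same oncogenic signal.

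The arrays hold log2 values, on which a difference of 1 is a 2-fold change of the reading, and their medians lay between 7.6 and 7.66. Over all tested probe sets, the Euclidean distance between arrays was 39.5 on average within mGC2_NES and 41.1 within mGC3_CNP, against 47.2 between the groups (39.7 to 52.1). The mGC3_CNP replicate 1 array stood at 46.4 and 44.6 from the other mGC3_CNP arrays, which were 32.3 apart. Both groups carried the markers of oligodendrocyte precursors at a high level, with list means of 12.18 to 12.39 in mGC2_NES and 12.29 to 12.38 in mGC3_CNP. Lists for microglia, endothelium, pericytes and ependyma read 6.55 to 6.98 in mGC2_NES and 6.49 to 6.84 in mGC3_CNP. Spermatid genes taken as absent from brain cells (Prm2, Tnp1, Tnp2 and Odf1) read between 5.60 and 7.42. A called difference with its lower group mean at or below 7.42 is therefore given as "at least", and no order is read from such differences. Where both means are at or below 7.42, presence of the transcript was not shown. The same holds for an NSC difference with both readings at or below 7.42, as for Cnmd, Gucy2f, Tspan8, Otog, Dync1i1, Epb41l3, Zfp459, Ttc30b and Ccl28 among the 30 genes named for their difference. Such an NSC value is given as a reading only. Y-linked transcripts were present in 2 of 3 mGC2_NES cultures and in 0 of 3 mGC3_CNP cultures, and likewise in the N/tv-a and not in the C/tv-a NSC culture. Their part in the results was not tested beyond the fit with this as a covariate, given below.

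Few genes separated the groups. At an adjusted p under 0.05 in limma, 100 probe sets of 98 genes were called, which is 0.459% of all tested. Of these, 58 were higher (0.266%) and 42 lower (0.193%) in mGC2_NES, while 2900 (13.3%) had an unadjusted p under 0.05. Differences of at least 2-fold were seen for 18 called probe sets higher and 20 lower in mGC2_NES (0.174% together). For each of the 100 calls all arrays of 1 group lay on the same side of all arrays of the other. Such a gap between the groups was also seen for 18.2% of all probe sets, 9.81% with mGC2_NES higher and 8.38% with mGC2_NES lower. The lower mean lay at or below 7.42 for 26 calls, and both means did for 5. The median difference over all probe sets was 0.01. With presence of Y-linked transcripts as a covariate the count was 40, of which 30 were among the 100. The count was 61, 60, 64 or 42 without mGC2_NES replicate 2, mGC2_NES replicate 3, mGC3_CNP replicate 2 or mGC3_CNP replicate 3. Without mGC2_NES replicate 1 it was 133, of which 80 were lower in mGC2_NES, and with the replicate number as a block 121, of which 65 were lower, each beside 42 lower calls of the 100.

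**Figure D1:**
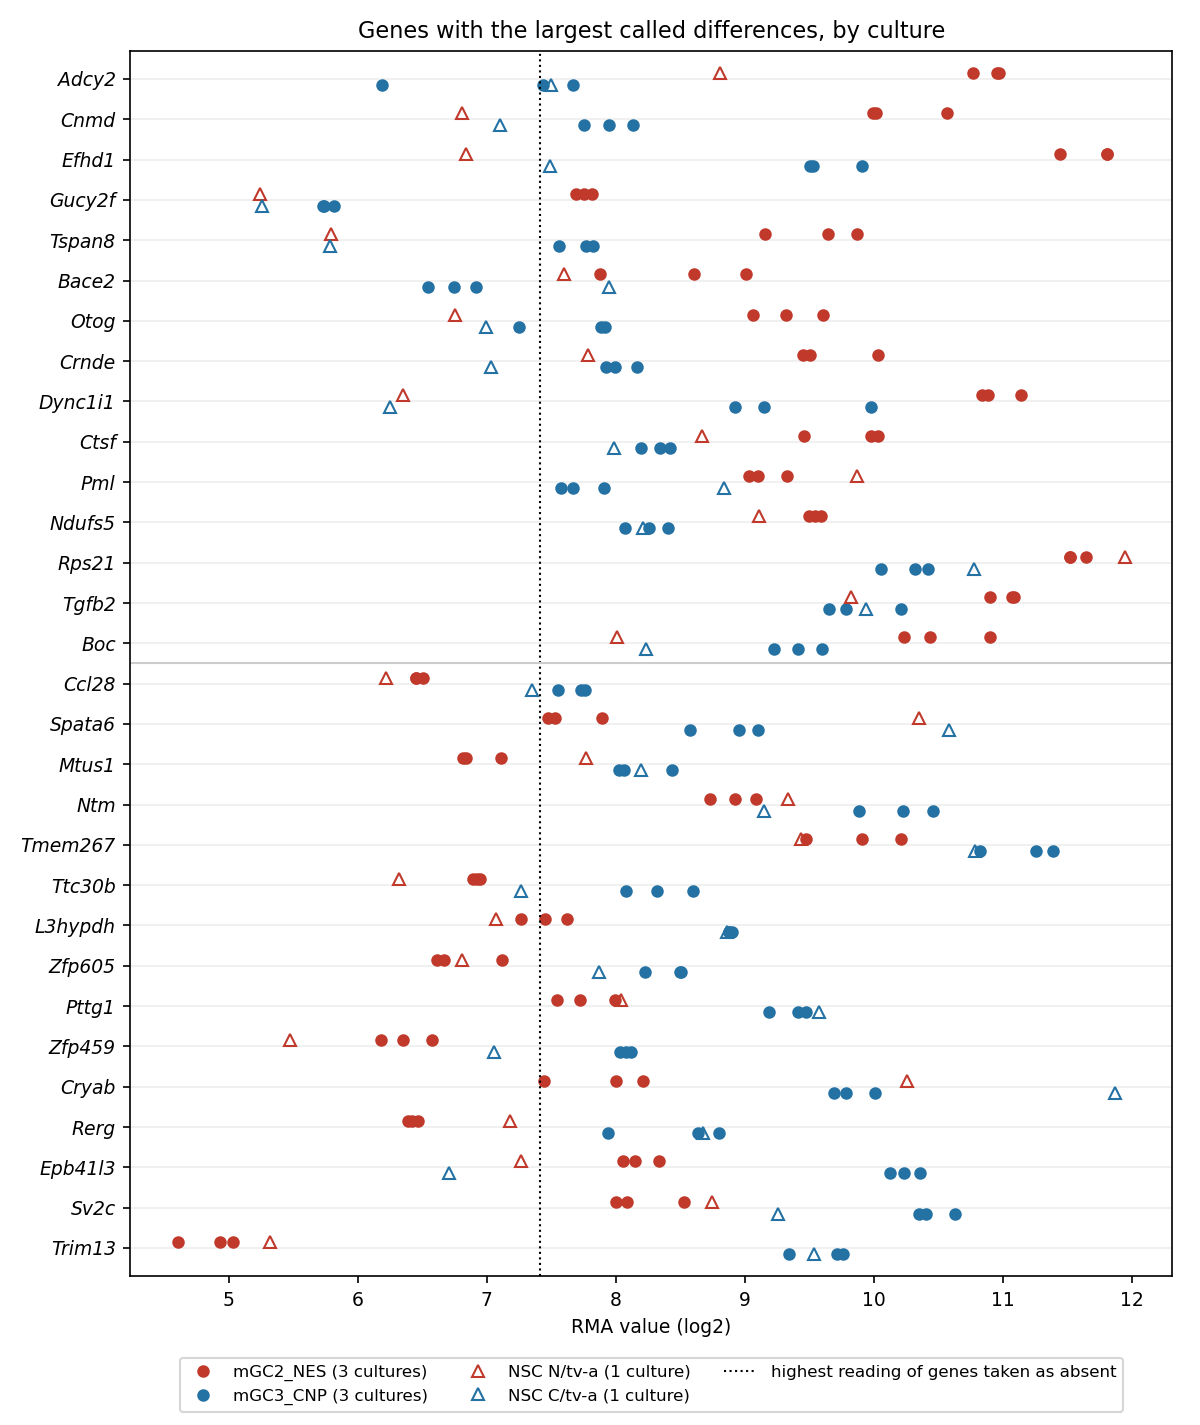
Values on the log2 scale (horizontal axis) of the 30 genes named for their called difference, 15 lower in the bottom part and 15 higher in the top part, by culture. Filled red and blue points are the mGC2_NES and mGC3_CNP cultures, open triangles the N/tv-a and C/tv-a NSC cultures, and the dotted line marks 7.42. The genes were chosen among calls without overlap, so the filled points of both groups lie apart for each by selection. Trim13 lies at 4.61 to 5.03 in mGC2_NES and 9.34 to 9.76 in mGC3_CNP.

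Trim13, which encodes a ubiquitin ligase of the endoplasmic reticulum membrane, was the call with the smallest p. Trim13 read 4.61, 5.03 and 4.94 in mGC2_NES, against 9.34, 9.71 and 9.76 in mGC3_CNP. It fell by at least 4.75 ± 0.17 (adjusted p = 6.16e-06), a reading at least 26.8-fold lower in mGC2_NES. All 3 mGC2_NES cultures lay below the level of genes taken as absent and all 3 mGC3_CNP cultures far above it. The NSC cultures parted in the same way, at 5.32 in NSC N/tv-a against 9.54 in NSC C/tv-a, a difference of -4.22. The mGC1_GFAP cultures read 9.67, 9.63 and 10.09 and thus lay with mGC3_CNP. RefSeq lists start sites of Trim13 on chromosome 14, and its promoters, taken as 250 bases before to 50 after a start, are shown for that reason. In these and the sequences further on, capitals mark matches on either strand to 3 short motifs that do not overlap each other. The GC box was searched as GGGCGG and occurs in 35.7% of the 32851 mouse promoters of this length. The TATA element was searched as TATAAA and occurs in 13.6% of them. The CCAAT box was searched by the letters of its name and occurs in 37.4% of them.
Trim13 promoter, first start, GRCm38.p6 chr14:61597976-61598275, plus strand: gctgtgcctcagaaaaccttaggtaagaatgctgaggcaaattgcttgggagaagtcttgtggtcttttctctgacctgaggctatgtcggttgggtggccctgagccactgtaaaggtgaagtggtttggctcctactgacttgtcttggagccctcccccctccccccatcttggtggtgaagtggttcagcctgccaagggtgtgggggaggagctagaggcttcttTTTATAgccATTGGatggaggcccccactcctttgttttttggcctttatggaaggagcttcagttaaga
Trim13 promoter, second start, GRCm38.p6 chr14:61599262-61599561, plus strand: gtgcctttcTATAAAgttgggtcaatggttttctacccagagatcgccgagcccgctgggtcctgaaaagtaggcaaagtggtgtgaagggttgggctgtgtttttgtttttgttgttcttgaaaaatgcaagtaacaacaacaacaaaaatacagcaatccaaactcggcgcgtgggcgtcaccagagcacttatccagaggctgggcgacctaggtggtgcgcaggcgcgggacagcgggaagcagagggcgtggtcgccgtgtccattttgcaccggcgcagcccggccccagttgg
The first sequence has a TATA match and a CCAAT match, the second a TATA match only. The CG dinucleotide occurs 1 time in the first and 18 times in the second, against a median of 7 over all promoters. These matches describe the letters and do not show that a factor binds there.

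Genes lower in mGC2_NES came from many functions, and for most of the large ones the N/tv-a NSC culture was also below the C/tv-a one. Rerg, a small Ras-like GTPase, read 6.46, 6.39 and 6.42 in mGC2_NES, against 7.94, 8.64 and 8.80 in mGC3_CNP. It fell by at least 2.04 ± 0.19 (adjusted p = 0.00191), beside -1.49 between the NSC cultures. Cryab, a small heat shock protein, read 7.44, 8.21 and 8.0 in mGC2_NES, against 9.69, 10.01 and 9.79 in mGC3_CNP. It fell by 1.94 ± 0.21 (adjusted p = 0.00443), beside -1.61 between the NSC cultures, both of which were above all tumour cultures at 10.26 in NSC N/tv-a against 11.87 in NSC C/tv-a. Pttg1, the securin that holds back chromatid separation, read 7.99, 7.72 and 7.54 in mGC2_NES, against 9.41, 9.19 and 9.48 in mGC3_CNP. It fell by 1.61 ± 0.14 (adjusted p = 0.00177), beside -1.54 in NSC. The zinc finger genes Zfp459 and Zfp605 fell by at least 1.71 ± 0.12 and at least 1.61 ± 0.13 (adjusted p = 4.66e-04 and 0.00153), beside NSC differences of -1.58, both readings of which lay below 7.42, and -1.06. L3hypdh, an enzyme of hydroxyproline breakdown, read 7.62, 7.27 and 7.45 in mGC2_NES, against 8.88, 8.88 and 8.90 in mGC3_CNP. It fell by 1.44 ± 0.09 (adjusted p = 4.05e-04), beside -1.79 in NSC. Ttc30b, a component of the transport trains of cilia, fell by at least 1.41 ± 0.13 (adjusted p = 0.00191), beside -0.94 in NSC with both readings below 7.42.

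Tmem267, a membrane protein gene, and Ccl28, a chemokine gene, are neighbours on chromosome 13 and both were lower in mGC2_NES. Tmem267 read 9.48, 10.21 and 9.91 in mGC2_NES, against 11.39, 11.26 and 10.82 in mGC3_CNP. It fell by 1.29 ± 0.19 (adjusted p = 0.0235), and the NSC difference was -1.35. Ccl28 read 6.45, 6.45 and 6.51 in mGC2_NES, against 7.76, 7.73 and 7.55 in mGC3_CNP, which is at or below the reading of absent genes in all 3 mGC2_NES cultures. It fell by at least 1.21 ± 0.18 (adjusted p = 0.0235), beside -1.13 in NSC with both readings below 7.42. Tmem267 no longer passed without mGC2_NES replicate 3 or mGC3_CNP replicate 1 or 2 (adjusted p = 0.0669 to 0.0784), and Ccl28 no longer passed without any single one of the 6 arrays (adjusted p = 0.0613 to 0.0939).

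A smaller set of lower genes had little or no matching NSC difference. Sv2c, a protein of synaptic vesicles, read 8.09, 8.53 and 8.0 in mGC2_NES, against 10.63, 10.40 and 10.35 in mGC3_CNP. It fell by 2.25 ± 0.29 (adjusted p = 0.0149), beside -0.51 in NSC. Ntm encodes neurotrimin, an adhesion molecule of neural cells, and read 8.73, 8.92 and 9.09 in mGC2_NES, against 10.22, 9.89 and 10.45 in mGC3_CNP. It fell by 1.28 ± 0.17 (adjusted p = 0.0167), while the NSC difference was 0.19. Mtus1, which encodes a microtubule-associated protein, fell by at least 1.26 ± 0.13 (adjusted p = 0.00318) with an NSC difference of -0.43. Spata6, known for its part in sperm tail attachment, fell by 1.24 ± 0.16 (adjusted p = 0.0153) with an NSC difference of -0.24. Sv2c no longer passed without mGC2_NES replicate 3 or mGC3_CNP replicate 2 or 3 (adjusted p = 0.0526 to 0.0702), Ntm without mGC2_NES replicate 2 or mGC3_CNP replicate 1 or 3 (adjusted p = 0.0538 to 0.0750), and Spata6 without mGC2_NES replicate 2 or mGC3_CNP replicate 3 (adjusted p = 0.0674 to 0.0677).

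Among genes higher in mGC2_NES, Adcy2, an adenylyl cyclase that makes the second messenger cyclic AMP, separated the groups by a wide margin. Adcy2 read 10.97, 10.95 and 10.77 in mGC2_NES, against 6.19, 7.67 and 7.44 in mGC3_CNP. It rose by at least 3.80 ± 0.35 (adjusted p = 0.00191), with the mGC3_CNP cultures spread over more than 1 log2 unit and the mGC2_NES cultures close together. The NSC cultures read 8.81 in NSC N/tv-a against 7.49 in NSC C/tv-a, a difference of 1.31. The probe set of AA388235, an unnamed locus on chromosome 17, was singled out after its values were seen. It read 8.75, 9.54 and 9.24 in mGC2_NES, against 5.06, 4.90 and 4.75 in mGC3_CNP. It rose by at least 4.27 ± 0.17 (adjusted p = 1.09e-05), and the NSC cultures read 8.94 in NSC N/tv-a against 4.87 in NSC C/tv-a, a difference of 4.07. Its mGC1_GFAP cultures read 5.12, 5.04 and 5.00. The promoter of Adcy2 is shown as that of a gene higher in mGC2_NES, with all 3 mGC2_NES readings far above those of absent genes.
Adcy2 promoter, GRCm38.p6 chr13:68999492-68999791, minus strand: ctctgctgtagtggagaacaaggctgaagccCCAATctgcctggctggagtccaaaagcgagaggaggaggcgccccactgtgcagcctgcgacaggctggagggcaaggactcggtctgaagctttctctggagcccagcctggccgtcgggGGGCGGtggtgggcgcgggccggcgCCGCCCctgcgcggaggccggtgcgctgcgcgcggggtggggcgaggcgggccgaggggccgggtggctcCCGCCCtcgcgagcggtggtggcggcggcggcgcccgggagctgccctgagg
It holds 3 GC box matches, 1 CCAAT match and 32 CG dinucleotides.

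The next 5 genes rose in mGC2_NES and had an NSC difference of the same sign. Rps21, a protein of the small ribosomal subunit, has 2 probe sets and both were called. The probe set with the smaller p read 11.52, 11.64 and 11.52 in mGC2_NES, against 10.32, 10.05 and 10.42 in mGC3_CNP. It rose by 1.30 ± 0.10 (adjusted p = 7.54e-04), beside 1.17 between the NSC cultures. Ndufs5, a subunit of respiratory complex I, read 9.5, 9.54 and 9.59 in mGC2_NES, against 8.26, 8.07 and 8.40 in mGC3_CNP. It rose by 1.30 ± 0.13 (adjusted p = 0.00273), beside 0.90 in NSC. Pml, which builds the nuclear bodies named after it, read 9.10, 9.03 and 9.32 in mGC2_NES, against 7.58, 7.67 and 7.91 in mGC3_CNP. It rose by 1.43 ± 0.20 (adjusted p = 0.0205), beside 1.03 in NSC, and did not pass without mGC2_NES replicate 2 or 3 or mGC3_CNP replicate 1, 2 or 3 (adjusted p = 0.0618 to 0.0797). Ctsf, the lysosomal protease cathepsin F, read 9.46, 9.98 and 10.03 in mGC2_NES, against 8.34, 8.20 and 8.42 in mGC3_CNP and rose by 1.5 ± 0.18 (adjusted p = 0.0104), with an NSC difference of 0.69. Crnde, a long noncoding RNA named for its expression in colorectal tumours, read 10.03, 9.45 and 9.5 in mGC2_NES, against 8.16, 7.92 and 7.99 in mGC3_CNP. It rose by 1.64 ± 0.15 (adjusted p = 0.00191), with an NSC difference of 0.75.

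Other genes rose in mGC2_NES with an NSC difference that was near 0 or of the opposite sign. Gucy2f, a membrane guanylate cyclase best known from the retina, read 7.75, 7.82 and 7.69 in mGC2_NES, against 5.74, 5.82 and 5.74 in mGC3_CNP. It rose by at least 1.99 ± 0.09 (adjusted p = 1.95e-05), with the cultures of each group close together. Both NSC cultures were near the lower group, at 5.25 in NSC N/tv-a against 5.26 in NSC C/tv-a, and the mGC1_GFAP cultures read 5.59, 5.26 and 5.36. Its promoter lies on chromosome X and is shown beside that of Adcy2 as that of a called gene with both NSC readings below 7.42.
Gucy2f promoter, GRCm38.p6 chrX:142196887-142197186, minus strand: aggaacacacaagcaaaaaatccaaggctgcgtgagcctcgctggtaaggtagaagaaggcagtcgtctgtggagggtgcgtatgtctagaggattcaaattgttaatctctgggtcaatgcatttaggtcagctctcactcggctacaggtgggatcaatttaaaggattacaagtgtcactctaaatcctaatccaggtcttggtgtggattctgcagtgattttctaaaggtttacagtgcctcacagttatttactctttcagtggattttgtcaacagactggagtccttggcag
None of the 3 motifs occurs in it, and it has 5 CG dinucleotides.

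Cnmd, the secreted cartilage protein chondromodulin, read 9.99, 10.02 and 10.56 in mGC2_NES, against 8.13, 7.95 and 7.75 in mGC3_CNP. It rose by 2.25 ± 0.19 (adjusted p = 0.00177), against an NSC difference of -0.30, with both NSC cultures below 7.42. Efhd1, a calcium-binding protein of mitochondria, read 11.80, 11.81 and 11.44 in mGC2_NES, against 9.5, 9.91 and 9.53 in mGC3_CNP. It rose by 2.04 ± 0.34 (adjusted p = 0.0465), against an NSC difference of -0.65. Tspan8, a tetraspanin of the cell surface, read 9.87, 9.15 and 9.64 in mGC2_NES, against 7.83, 7.56 and 7.77 in mGC3_CNP. It rose by 1.84 ± 0.28 (adjusted p = 0.0278), and both NSC cultures read near 5.79. Bace2, a protease related to the beta-secretase of amyloid precursor protein, read 8.61, 9.01 and 7.88 in mGC2_NES, against 6.91, 6.55 and 6.74 in mGC3_CNP. It rose by at least 1.76 ± 0.24 (adjusted p = 0.0156), with an NSC difference of -0.35. Otog, which encodes an inner ear matrix protein, and Dync1i1, an intermediate chain of cytoplasmic dynein, rose by 1.65 ± 0.24 and 1.60 ± 0.25 (adjusted p = 0.0218 and 0.0328), with NSC differences of -0.24 and 0.10. The margin of these calls was thin for most. With the replicate number as a block the adjusted p was 0.0517 for Efhd1, 0.0660 for Tspan8, 0.0508 for Otog and 0.0643 for Dync1i1. Efhd1 did not pass without any single one of the 6 arrays (adjusted p = 0.0801 to 0.178), Tspan8 without mGC2_NES replicate 1 or 3 or mGC3_CNP replicate 1, 2 or 3 (adjusted p = 0.0669 to 0.106), Bace2 without mGC3_CNP replicate 2 or 3 (adjusted p = 0.0630 to 0.0740), Otog without mGC2_NES replicate 2 or 3 or mGC3_CNP replicate 2 or 3 (adjusted p = 0.0538 to 0.0835) and Dync1i1 without mGC2_NES replicate 1, 2 or 3 or mGC3_CNP replicate 2 or 3 (adjusted p = 0.0785 to 0.106).

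Signalling genes were among the rises as well. Tgfb2, a ligand of the TGF-beta family, read 11.07, 11.08 and 10.90 in mGC2_NES, against 9.65, 10.21 and 9.78 in mGC3_CNP. It rose by 1.14 ± 0.17 (adjusted p = 0.0235), with an NSC difference of -0.12. Boc, a co-receptor for hedgehog ligands, read 10.90, 10.24 and 10.43 in mGC2_NES, against 9.60, 9.41 and 9.23 in mGC3_CNP. It rose by 1.11 ± 0.17 (adjusted p = 0.0271), with an NSC difference of -0.22. Plxna1, a semaphorin receptor, read 10.70, 10.64 and 10.57 in mGC2_NES, against 10.01, 10.25 and 10.10 in mGC3_CNP, and rose by 0.52 ± 0.09 (adjusted p = 0.0440), with an NSC difference of -0.21. For all 3 genes the single N/tv-a NSC culture read slightly below the C/tv-a one, while the tumour difference was positive. The gap between the tumour and NSC differences, tested as described below, did not pass for any of them. Its limma adjusted p was 0.416 for Tgfb2, 0.383 for Boc and 0.344 for Plxna1. With the replicate number as a block the adjusted p was 0.0517 for Tgfb2 and 0.0572 for Plxna1. Tgfb2 did not pass without mGC2_NES replicate 1, 2 or 3 or mGC3_CNP replicate 1 or 3 (adjusted p = 0.0642 to 0.111), Boc without mGC2_NES replicate 3 or mGC3_CNP replicate 2 or 3 (adjusted p = 0.0755 to 0.118) and Plxna1 without any single one of the 6 arrays (adjusted p = 0.0526 to 0.174).

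Over the 100 calls, the difference between the NSC cultures had the same sign as the tumour difference for 76, against 51.0% of all 21780 probe sets. The shared sign was seen for 41 of 58 calls higher and 35 of 42 calls lower in mGC2_NES. The NSC difference had the same sign and was at least 1 for 16 calls. Both NSC readings lay at or below 7.42 for 19 calls, and of the other 81 the sign was shared by 66, against 53.4% of the 12650 probe sets with an NSC reading above 7.42. The NSC difference was under 0.2 in size for 29 calls, and for 73.8% of all probe sets. Across the 100 calls the tumour and NSC differences had Pearson's r of 0.72 and Spearman's rho of 0.59, against 0.21 and 0.06 over all probe sets. The values over the 100 pool both directions. Within the 58 calls higher in mGC2_NES r was 0.48 and rho 0.10, and within the 42 lower r was 0.74 and rho 0.46. Among the higher calls the rank of the NSC difference thus hardly followed that of the tumour difference. These describe probe sets that share the same arrays and are no test. With 1 NSC culture a line, an NSC difference has no replicate check, and the line and the single culture cannot be told apart.

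**Figure D2:**
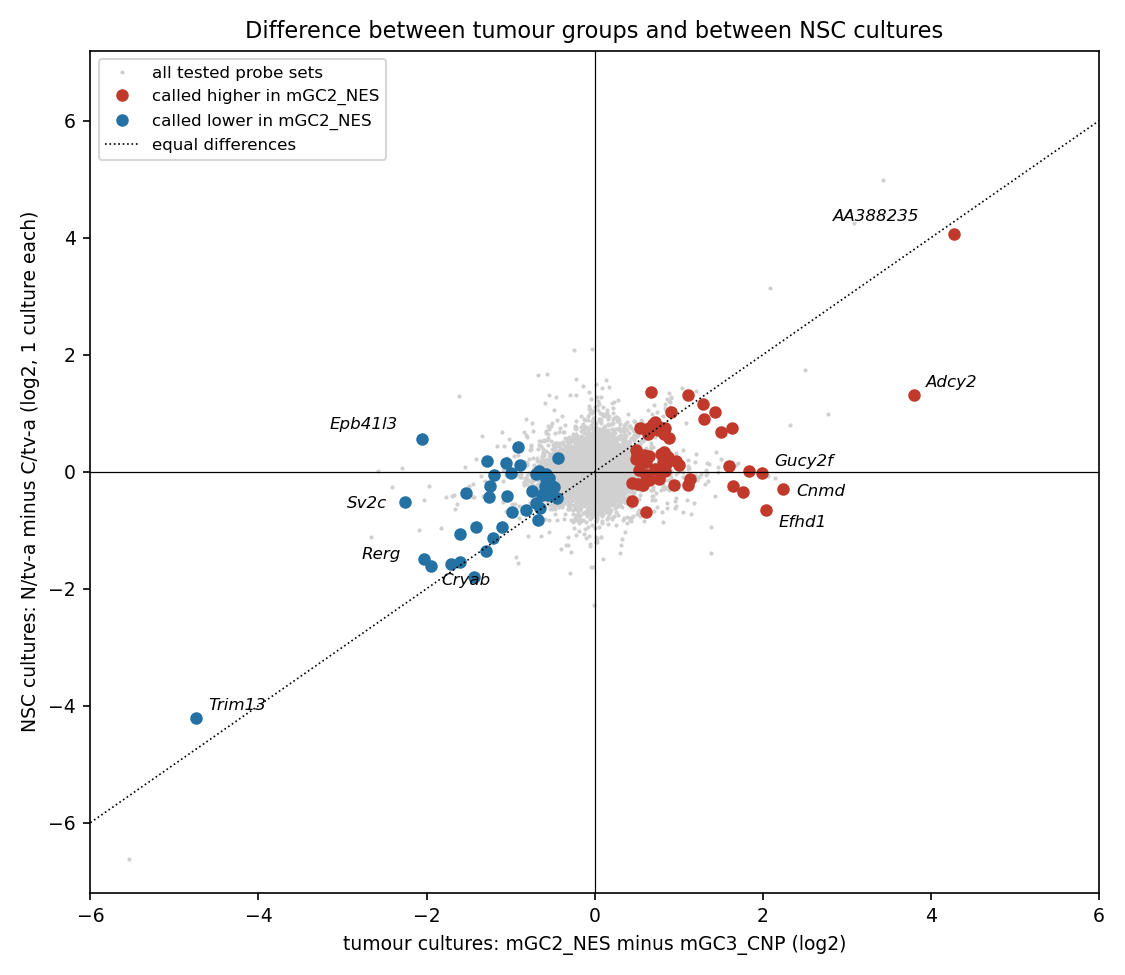
Difference between mGC2_NES and mGC3_CNP (horizontal axis, log2) against the difference between the N/tv-a and C/tv-a NSC cultures (vertical axis, log2) for all tested probe sets (grey) and the calls higher (red) and lower (blue) in mGC2_NES. Trim13 and AA388235 lie near the dotted line of equal differences, while Gucy2f, Cnmd and Efhd1 have large tumour differences with NSC values of -0.01, -0.30 and -0.65.

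Whether a tumour difference departed from the NSC difference was tested in a fit of all 12 arrays, in which each single NSC culture is assumed to vary like a tumour culture. It called 19 probe sets (0.0872% of all), with 1503 at an unadjusted p under 0.05. Of the 100 calls between the tumour groups, 3 passed this test. Epb41l3, a protein that ties membrane proteins to the cytoskeleton, read 8.34, 8.06 and 8.15 in mGC2_NES, against 10.13, 10.24 and 10.36 in mGC3_CNP. It fell by 2.06 ± 0.14 (adjusted p = 4.05e-04), while the NSC cultures, both below 7.42 at 7.27 in NSC N/tv-a against 6.71 in NSC C/tv-a, differed by 0.56, and the gap of the readings between both differences was -2.62 ± 0.28 (adjusted p = 0.0156). Gucy2f, with mGC3_CNP and both NSC cultures below 7.42, had a gap of the readings of 2.01 ± 0.18 (adjusted p = 0.00562). Paqr8, a membrane receptor for progestins, read 9.80, 9.84 and 9.72 in mGC2_NES, against 9.23, 9.15 and 9.15 in mGC3_CNP. It rose by 0.61 ± 0.06 (adjusted p = 0.00273), the NSC cultures differed by -0.69, and the gap was 1.31 ± 0.12 (adjusted p = 0.00562). The gap of Epb41l3 had an adjusted p of 0.0577, 0.0518 or 0.0568 without mGC2_NES replicate 2, mGC2_NES replicate 3 or mGC3_CNP replicate 2. Leaving out 1 array lowered the count of 19 to 9 (mGC2_NES replicate 1), 7 (mGC2_NES replicate 2), 9 (mGC2_NES replicate 3), 7 (mGC3_CNP replicate 2) or 10 (mGC3_CNP replicate 3). The other 16 probe sets were not called between the tumour groups, where their differences were 0.17 or less in size, and 15 of them had all 9 tumour values at or below 7.42. Their NSC differences were 0.83 or more, so that the test there rests on the assumed spread of single NSC cultures.

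The promoter genes and the genes of the tumour model did not pass the test. Nes read 9.59, 9.63 and 9.67 in mGC2_NES, against 9.89, 10.32 and 10.52 in mGC3_CNP, a difference of -0.61 ± 0.19 (adjusted p = 0.213), beside -0.20 in NSC. Cnp read 11.81, 12.38 and 12.23 in mGC2_NES, against 12.38, 12.53 and 12.38 in mGC3_CNP, a difference of -0.29 ± 0.20 (adjusted p = 0.595), beside -0.04 in NSC. Gfap differed by 0.02 ± 0.13 (adjusted p = 0.962) with both tumour means below 7.42, so that equal levels and absence cannot be told apart, while the NSC cultures read 7.71 in NSC N/tv-a against 8.43 in NSC C/tv-a, a difference of -0.73. Pdgfra, the receptor, read 13.39, 13.32 and 13.41 in mGC2_NES, against 13.34, 13.43 and 13.47 in mGC3_CNP, a difference of -0.04 ± 0.06 (adjusted p = 0.851), beside 0.13 in NSC. Pdgfb differed by 0.06 ± 0.10 (adjusted p = 0.865), beside -0.12 in NSC, and whether its probes read the viral insert was not checked. At the locus of Arf, Cdkn2a read 8.39, 8.96 and 9.35 in mGC2_NES, against 8.26, 8.69 and 8.51 in mGC3_CNP, all above 7.42, a difference of 0.41 ± 0.23 (adjusted p = 0.505), beside 0.12 in NSC (7.92 in NSC N/tv-a against 7.79 in NSC C/tv-a). Which transcripts of the locus its probes read, and whether they lie in the deleted part, is not known here, so that these readings do not check the loss of Arf. The neighbouring cell cycle inhibitor Cdkn2b read 7.83, 7.45 and 7.30 in mGC2_NES, against 8.39, 8.08 and 9.58 in mGC3_CNP, a difference of -1.16 ± 0.36 (adjusted p = 0.212) with an NSC difference of 0.44. The groups' arrays did not overlap for Nes, Cnp and Cdkn2b, as for 18.2% of all probe sets. For Cnp this was close to a tie, with the highest mGC2_NES array at 12.377 and the lowest mGC3_CNP array at 12.381.

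The sex-linked transcripts varied within mGC2_NES. Their means over Eif2s3y, Kdm5d and Uty, all encoded on the Y chromosome, were 9.17, 4.89 and 9.08 in mGC2_NES replicates 1 to 3, against 4.81, 4.96 and 4.77 in mGC3_CNP, and 9.28 in NSC N/tv-a against 5.15 in NSC C/tv-a. Xist, the X inactivation transcript, read 5.55, 9.27 and 5.62 in mGC2_NES, against 12.52, 12.61 and 11.91 in mGC3_CNP, and 5.67 in NSC N/tv-a against 12.28 in NSC C/tv-a. Here and for list members, NSC in brackets gives the N/tv-a minus C/tv-a difference. The differences did not pass: Xist -5.54 ± 1.77 (adjusted p = 0.225, NSC -6.61), Eif2s3y 3.43 ± 1.64 (adjusted p = 0.413, NSC 4.98), Uty 3.09 ± 1.21 (adjusted p = 0.321, NSC 4.25) and Kdm5d 2.08 ± 0.92 (adjusted p = 0.371, NSC 3.14). Presence of Y-linked transcripts as a covariate left 18 of the 30 named genes past the threshold. It ended the calls of Efhd1 (adjusted p = 0.0928), Tspan8, Otog, Dync1i1, Pml, Tgfb2, Boc, Sv2c, Tmem267, Ntm, Spata6 and Ccl28, with adjusted p = 0.0534 to 0.141. The differences of these 12 genes with the covariate were 0.766 to 1.16 times those without it, larger for 6 and smaller for 6. All mGC3_CNP cultures lack these transcripts, so status and group are told apart in that fit only through mGC2_NES replicate 2 and the mGC1_GFAP cultures.

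The list means of DNA replication and of mitosis genes were lower in each mGC2_NES culture than in any mGC3_CNP culture, by small amounts, and of their members 1 of 20 and 0 of 19 passed the test. All mGC2_NES arrays lay below all mGC3_CNP arrays for 15 of 20 and 11 of 19 members, as for 8.38% of all probe sets. In the DNA replication list 0 of 20 members were called higher, 1 lower and 19 not, and the list median was -0.36, against 0.01 over all probe sets. Of its members 20 of 20 had a negative difference, as had 47.2% of all probe sets, and 19 reached an unadjusted p under 0.05 on the lower side, against 6.63% of all. The list means were 10.38, 10.20 and 10.15 in mGC2_NES, against 10.73, 10.50 and 10.65 in mGC3_CNP. The called member was Pola1, the X-linked catalytic subunit of the polymerase that starts DNA strands. Pola1 read 8.75, 8.77 and 8.73 in mGC2_NES, against 9.48, 9.22 and 9.30 in mGC3_CNP and fell by 0.58 ± 0.08 (adjusted p = 0.0158), with an NSC difference of -0.03. It did not pass without mGC2_NES replicate 2 or 3 or mGC3_CNP replicate 3 (adjusted p = 0.0608 to 0.0702). The NSC median of the list was 0.08, with the N/tv-a culture at 11.12 against 11.03 for the C/tv-a culture.

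In the mitosis list 0 of 19 members were called, 19 had a negative difference, and an unadjusted p under 0.05 was reached by 15, all lower. The list median was -0.41. The list means were 11.28, 10.83 and 11.09 in mGC2_NES, against 11.59, 11.35 and 11.43 in mGC3_CNP, so the groups did not overlap, as for some other lists named below. Its members with the smallest p were the spindle checkpoint kinase gene Ttk at -0.46 ± 0.11 (adjusted p = 0.112, NSC -0.07) and the spindle assembly factor gene Tpx2 at -0.46 ± 0.11 (adjusted p = 0.127, NSC -0.32). The NSC median was -0.27, with 11.25 in N/tv-a against 11.50 in C/tv-a. Members of a list were measured in the same 3 cultures a group and are not replicates. Without mGC2_NES replicate 1, 4 members of the DNA replication list and 3 of the mitosis list were called. Both lists leave out genes that were called lower in the main fit, picked out here after their values were seen. Among them are Pttg1, given above, the centromere protein gene Cenpq, and Rpa3, given further on. Cenpq did not pass without mGC2_NES replicate 2 or 3 or mGC3_CNP replicate 3 (limma adjusted p = 0.0674 to 0.0696). Of the cell cycle inhibitors and cyclins 0 of 14 were called, and the smallest p belonged to Ccne2, an S phase cyclin, at -0.44 ± 0.09 (adjusted p = 0.0804, NSC 0.11) and Ccnd3 at -0.27 ± 0.08 (adjusted p = 0.202, NSC 0.03).

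**Figure D3:**
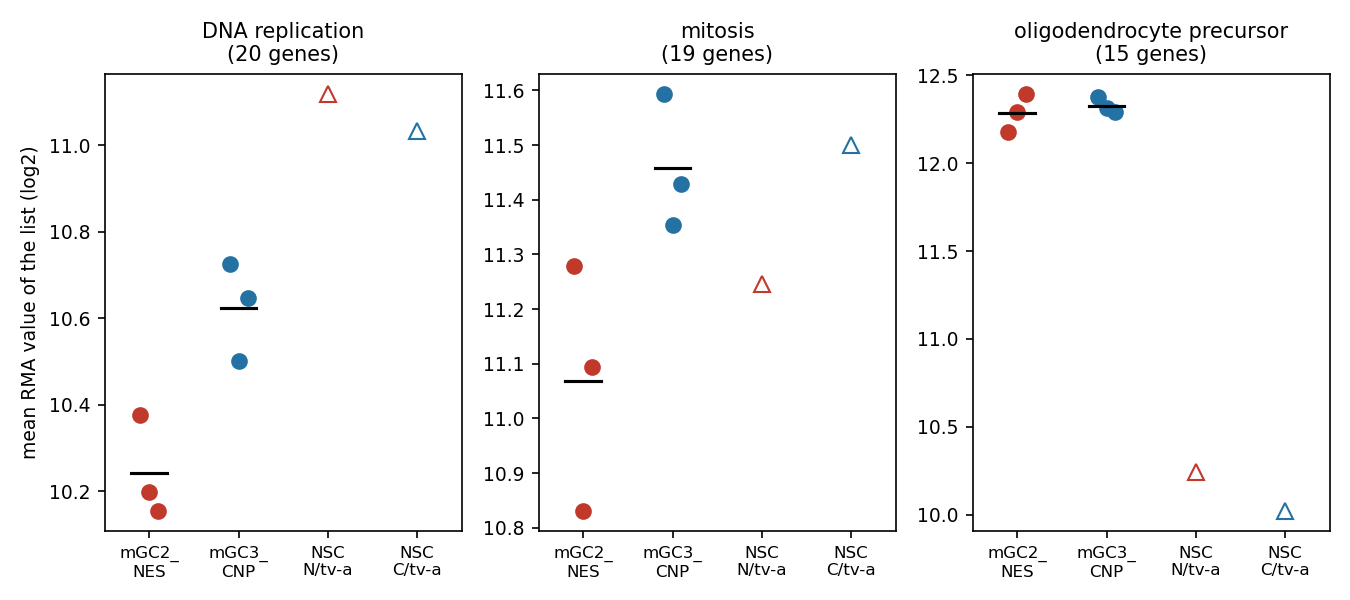
Mean log2 value of the members of 3 gene lists (vertical axes, which differ between panels) in each mGC2_NES and mGC3_CNP culture (filled points, with the group mean as a line) and in the NSC cultures of both lines (open triangles). For DNA replication and mitosis all mGC2_NES cultures lie below all mGC3_CNP cultures, while the oligodendrocyte precursor list overlaps at 12.18 to 12.39 in mGC2_NES and 12.29 to 12.38 in mGC3_CNP.

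Glial and neural lineage lists, which bear most directly on the promoters of the lines, held no called member. In the oligodendrocyte precursor list 0 of 15 were called and the median was -0.04, with Olig2, the lineage transcription factor, at -0.17 ± 0.07 (adjusted p = 0.355, NSC 0.00) and Lhfpl3 at 0.13 ± 0.08 (adjusted p = 0.508, NSC 0.61). In the differentiated oligodendrocyte list 0 of 16 were called and the median was -0.02, led by Aspa, an enzyme of oligodendrocytes, at 0.24 ± 0.09 (adjusted p = 0.301, NSC -0.09) and Ugt8a, an enzyme of myelin lipid synthesis, at -0.17 ± 0.08 (adjusted p = 0.369, NSC 0.36). In the astrocyte list 0 of 16 were called and the median was 0.02. Slc1a3, an astrocyte glutamate transporter, read 6.81, 7.39 and 7.87 in mGC2_NES, against 10.31, 7.82 and 10.05 in mGC3_CNP, a difference of -2.03 ± 0.75 (adjusted p = 0.288, NSC -0.49), so that mGC3_CNP itself was split, and Ndrg2 differed by 0.36 ± 0.16 (adjusted p = 0.369, NSC 0.34). In the neural stem cell list 0 of 14 were called, and the median was -0.18, beside -0.20 in NSC. An unadjusted p under 0.05 was reached by 5 members, all lower, against 6.63% of all probe sets on the lower side. Of the members 12 had a negative difference, as had 47.2% of all probe sets. The means of this list were 9.28, 9.35 and 9.43 in mGC2_NES, against 9.65, 9.53 and 9.77 in mGC3_CNP, so the groups did not overlap. List means were also without overlap, but higher in mGC2_NES, for 3 lists given below. These were hedgehog (8.84 to 8.99 against 8.59 to 8.71), interferon and antigen presentation (7.46 to 7.54 against 7.27 to 7.39) and chemokines and cytokines (7.073 to 7.251 against 6.980 to 7.071). Leading members of the neural stem cell list were Nr2e1, a nuclear receptor of stem cells, at -0.49 ± 0.12 (adjusted p = 0.129, NSC -0.21), and Nes, given above. In the neuroblast and neuron list 0 of 18 were called and the median was -0.13, led by Snap25, a vesicle fusion protein, at -0.81 ± 0.26 (adjusted p = 0.234, NSC 0.59) and Elavl4, a neuronal RNA-binding protein, at 0.63 ± 0.27 (adjusted p = 0.368, NSC 0.29). An absent call with 3 cultures a group does not show equal levels.

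Of the subtype lists of glioblastoma, the proneural one had 0 of 12 and the mesenchymal one 0 of 23 members called, with medians of 0.00 and 0.04. Runx1, a transcription factor of the mesenchymal list, read 10.71, 9.39 and 9.98 in mGC2_NES, against 9.06, 7.93 and 8.77 in mGC3_CNP, a difference of 1.44 ± 0.35 (adjusted p = 0.129, NSC 0.34) that did not pass. The lists of other cell types had 0 of 14 (microglia and macrophage), 0 of 10 (endothelial), 0 of 10 (pericyte and fibroblast) and 0 of 6 (ependymal) called, with medians between 0.01 and 0.10. Their leading members were Cd68 at 0.22 ± 0.07 (adjusted p = 0.194, NSC 0.01), Pecam1 at 0.22 ± 0.10 (adjusted p = 0.395, NSC 0.14), Col1a2 at 0.20 ± 0.08 (adjusted p = 0.324, NSC -0.07) and Foxj1 at 0.25 ± 0.09 (adjusted p = 0.265, NSC -0.26). Forebrain patterning genes (0 of 13, median -0.07) were led by Lhx2 at -0.37 ± 0.12 (adjusted p = 0.220, NSC -0.11), and Hox genes (0 of 29, median 0.04) by Hoxa5 at -0.54 ± 0.13 (adjusted p = 0.130, NSC 0.09).

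Among signalling lists, the called members were Tgfb2 in the BMP and TGF-beta list (1 of 28, median 0.03), Boc in the hedgehog list (1 of 11, median 0.06) and Plxna1 in the axon guidance list (1 of 37, median -0.10). The hedgehog list had 10 of 11 positive differences and 1 negative one, against 47.2% negative over all probe sets. Other lists leaned the same way, with 6 of 31 negative in the Wnt list, 4 of 23 in the mesenchymal list and 2 of 14 among cholesterol synthesis genes. The Wnt list had 0 of 31 called and a median of 0.09, with the receptor gene Fzd9 at 0.71 ± 0.16 (adjusted p = 0.101, NSC -0.12) and the stem cell receptor gene Lgr5 at -0.58 ± 0.13 (adjusted p = 0.107, NSC 0.70) going opposite ways. The Notch list had 0 of 15 called, led by the transcription factor gene Hey2 at 0.81 ± 0.32 (adjusted p = 0.321, NSC -0.08). Growth factor receptors (0 of 20, median -0.05) were led by Erbb4 at -0.41 ± 0.12 (adjusted p = 0.179, NSC 0.10). Growth factors (0 of 21) had a median of 0.07, while their smallest p belonged to Pdgfc, a PDGF ligand, at -0.39 ± 0.09 (adjusted p = 0.118, NSC 0.07). Feedback genes and targets of ERK signalling (0 of 14) had a median of -0.07, with the ETS factor gene Etv1 at -0.23 ± 0.13 (adjusted p = 0.514, NSC -0.03). In the immediate early list 0 of 16 were called, the median was -0.16, and 12 members had a negative difference, as had 47.2% of all probe sets. An unadjusted p under 0.05 was reached by 3 lower and 2 higher members. Nr4a2, a nuclear receptor that went against the median, read 8.73, 9.36 and 8.86 in mGC2_NES, against 7.15, 7.59 and 8.19 in mGC3_CNP, a difference of 1.34 ± 0.26 (adjusted p = 0.0755, NSC 0.14).

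The remaining lists were likewise without calls. The interferon and antigen presentation list (0 of 20) had a median of 0.10 and 5 members with an unadjusted p under 0.05, all higher, against 6.69% of all probe sets. Mx2, an interferon-induced GTPase, read 7.11, 7.29 and 7.0 in mGC2_NES, against 6.15, 6.23 and 5.45 in mGC3_CNP, a difference of 1.19 ± 0.23 (adjusted p = 0.0714, NSC -0.06) with both means at or below 7.42, so that its presence was not shown. In the chemokine and cytokine list (0 of 19) the chemokine gene Cxcl14 differed by -0.74 ± 0.13 (adjusted p = 0.0559, NSC 0.84) and Cxcl12 by 0.77 ± 0.18 (adjusted p = 0.112, NSC 0.20). Each list is a selection of genes and leaves out some that were called, picked out here after their values were seen. Among them are the chemokine gene Ccl28, given above, and the antigen presentation genes H2-Ab1, higher by 0.82 ± 0.12 (adjusted p = 0.0235, NSC 0.15) with both means below 7.42, and H2-T10, lower by at least 0.99 ± 0.11 (adjusted p = 0.00732, NSC -0.01). Whether probes of these 2 also read related genes of the family was not tested. Cholesterol synthesis genes (0 of 14) had a median of 0.13 and 5 members with an unadjusted p under 0.05, all higher, led by Msmo1 at 0.28 ± 0.09 (adjusted p = 0.211, NSC 0.36) and Hmgcs1 at 0.40 ± 0.13 (adjusted p = 0.213, NSC 0.12). Hypoxia and glycolysis genes (0 of 15) had a median of -0.28, with list means of 9.57, 9.12 and 9.11 in mGC2_NES, against 9.38, 9.03 and 10.27 in mGC3_CNP, where replicate 3 stood above the other 5 cultures. Extracellular matrix genes (0 of 29) were led by Sparc, a matricellular protein, at 0.56 ± 0.11 (adjusted p = 0.0771, NSC 0.12) and the laminin gene Lama5 at 0.44 ± 0.12 (adjusted p = 0.167, NSC 0.17). Matrix proteases (0 of 18) had a median of 0.11 and 5 negative differences, against 47.2% over all probe sets. Their smallest p belonged to Mmp17, which went the other way at -0.43 ± 0.11 (adjusted p = 0.128, NSC 0.35). Integrins and adhesion genes (0 of 23) were led by Itga6 at -0.33 ± 0.08 (adjusted p = 0.128, NSC 0.21), and ion channels and glutamate receptors (0 of 28) by Grik4 at -0.22 ± 0.09 (adjusted p = 0.323, NSC 0.32). Drug transport and detoxification genes (0 of 20) were led by Aldh1a1 at 0.20 ± 0.08 (adjusted p = 0.332, NSC -0.21) and Slc7a11, the cystine transporter, at 0.84 ± 0.34 (adjusted p = 0.339, NSC 1.10), and targets of p53 (0 of 16) by the death receptor gene Tnfrsf10b at -0.40 ± 0.19 (adjusted p = 0.417, NSC 0.49).

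**Figure D4:**
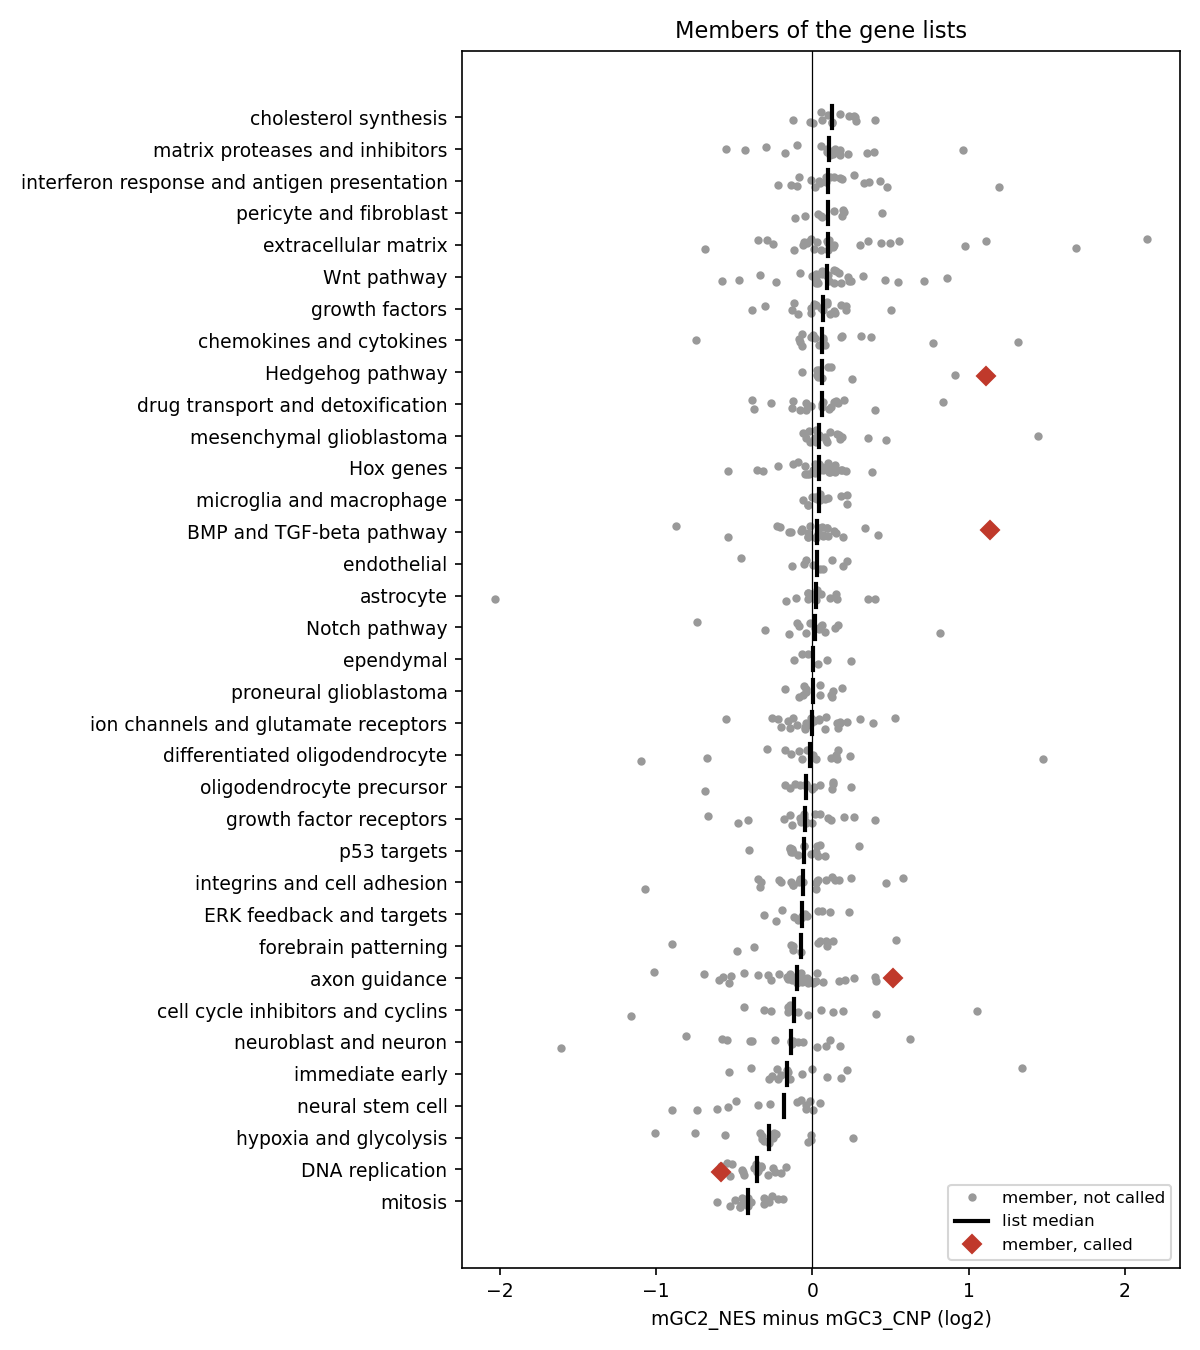
Difference between mGC2_NES and mGC3_CNP (horizontal axis, log2) of each member of 35 gene lists, sorted by list median (black bars), with called members as red diamonds. The medians of mitosis (-0.41) and DNA replication (-0.36) lie furthest to the left, and 4 members are called, Pola1, Plxna1, Tgfb2 and Boc.

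The calls were also read by position, using the order of tested genes along each chromosome in RefSeq. Within 5 tested genes of each other lay 10 pairs of called genes, which involve 18 of the 98 genes, 6 pairs with the same direction and 4 with opposite ones. How many pairs the same number of scattered genes would give was not worked out, so no clustering is read from this count. On chromosome 13, Tmem267 and Ccl28 are next to each other, and the predicted gene 4833420G17Rik, also called, lies 2 genes from Tmem267 at -0.99 in the tumour comparison and -0.68 in NSC. Between them 3110070M22Rik differed by -0.41 and was not called, and on the other side Hmgcs1 differed by 0.40 and was not called. Around Trim13 none of the 10 neighbours was called. Kcnrg, 2 genes away, differed by -0.56, Dleu2 by -0.17 and Spryd7 by -0.14. Around AA388235, which lies between H2-K2 and Ring1, 1 neighbour was called, Vps52 at -0.51, in the opposite direction. Adcy2, Gucy2f and Epb41l3 stood alone among their neighbours.

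**Figure D5:**
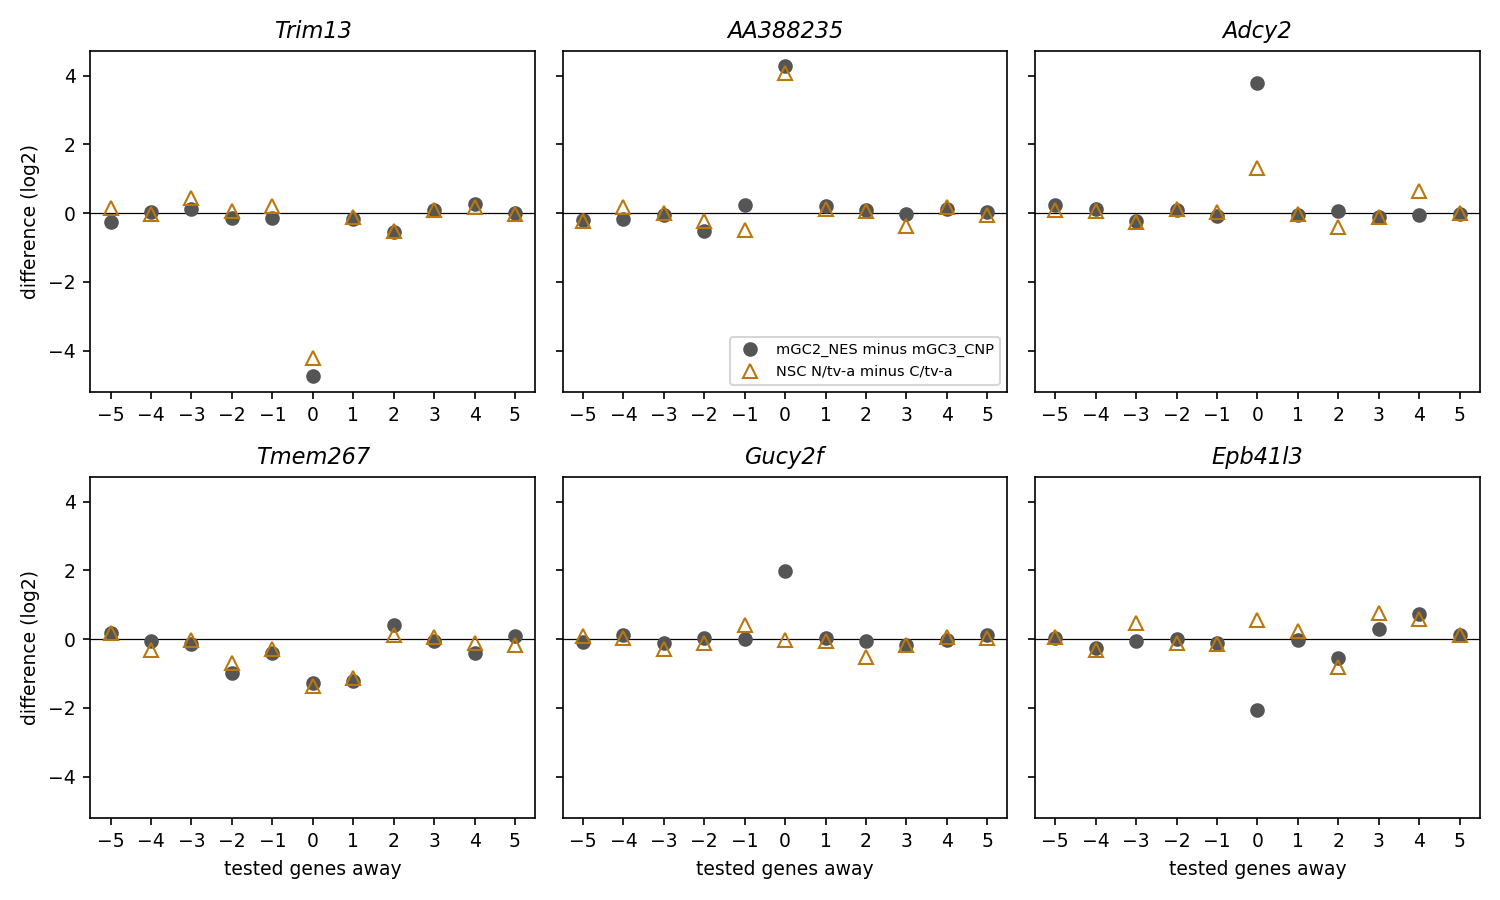
Differences on the log2 scale (vertical axes) of 6 called genes, at position 0, and of up to 5 tested genes on either side (horizontal axes, in genes), between mGC2_NES and mGC3_CNP (grey points) and between the N/tv-a and C/tv-a NSC cultures (open triangles). Trim13, AA388235, Adcy2, Gucy2f and Epb41l3 stand apart from their neighbours, while Tmem267 lies beside 2 other genes called in the same direction.

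The cultures of the G/tv-a line gave a further view of each call. The mGC1_GFAP mean lay nearer the mGC3_CNP mean for 85 of the 100 calls and nearer the mGC2_NES mean for 15, against 57.7% nearer mGC3_CNP over all probe sets, and it lay between both means for 59. Since these cultures entered the estimate of the spread, the counts are a description.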

How the data were processed

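RNA of each culture was hybridised to 1 Affymetrix array that covers whole transcripts. The authors deposited log2 values from RMA, run in their Expression Console software, per the submitters' processing notes. RMA corrects background, brings arrays to a common distribution and summarises probes, which hides any shift common to most genes. The sources used here give neither software version nor array build. Precision is set by the number of arrays. Values were used as deposited, without a filter. Of 28270 probe sets, 21780 had 1 gene symbol in the platform annotation, 1617 had several and 4873 were not listed. Of the 21780, 21689 were found in RefSeq genes of GRCm38.p6, which gave chromosomes and gene order, and 91 were not.

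Tests were two-sided in limma 3.58.1 under R 4.3.3 (lmFit, eBayes), with Benjamini-Hochberg adjustment over 21780 probe sets and a threshold of 0.05. The contrast mGC2_NES minus mGC3_CNP was fitted on the 9 tumour arrays. A second fit on 12 arrays tested it against the N/tv-a minus C/tv-a NSC difference. Differences are estimates ± their standard error. The scripts were tested on simulated data. The members and lists were chosen with earlier results of these data known. Named genes are the 15 largest rises and 15 largest falls as measured among calls without overlap, leaving out predicted or accession-like names, with fixed genes and, for each list, its called members or up to 2 with the smallest p. Same-numbered cultures of both groups deviated together from their group means (correlations 0.17, 0.25 and 0.13). An alternative fit therefore took the replicate numbers of the sample titles as pairs (the replicate block). The main fit has no pairing, and the sources used here do not state one. Alternatives covered the arrays in the fit, the variance prior, array weights, scaling, low probe sets, the sex chromosomes, Y-linked transcripts, the replicate block and each replicate left out. Promoter sequences are from RefSeq, and 24 of the 30 named genes had one in the table.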

Additional observations from a re-analysis of the deposited data

Results flagged for a closer look

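For 3 called genes the difference between the tumour groups departed from that between the single N/tv-a and C/tv-a NSC cultures, by a test of the gap between both differences. The test takes the spread of the tumour cultures for the single NSC cultures, which could not be checked, and on the NSC side line and culture cannot be told apart, so the gap is between these cultures and not shown for the lines. Gucy2f read at least 1.99 higher in mGC2_NES than in mGC3_CNP and differed by -0.01 between the NSC cultures, both below 7.42, and the readings gave a gap of 2.01 (limma adjusted p = 0.00562). Paqr8 differed by 0.61 between the tumour groups and by -0.69 between the NSC cultures, a gap of 1.31 (limma adjusted p = 0.00562), with opposite signs and all readings above 7.42. Epb41l3 differed by -2.06 between the tumour groups and by 0.56 between the NSC cultures, and the readings gave a gap of -2.62 (limma adjusted p = 0.0156). Both NSC readings of Epb41l3 lay below 7.42, so that no sign is taken from its NSC difference. The direction of the tumour difference was seen in 3 of 3 mGC2_NES cultures against all 3 mGC3_CNP cultures for these genes. That held for each of the 100 calls and for 18.2% of all probe sets, in either direction, and does not bear on the gap. Gucy2f and Paqr8 passed in each of the alternatives that gave a value, with adjusted p up to 0.0256, and Epb41l3 passed in 7 of 10, with adjusted p up to 0.0577.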

How the results depend on the processing

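Against 100 calls, 62 were made on the 6 arrays of both groups alone (54 of them among the 100) and 40 with Y-linked transcripts as a covariate (30 among the 100). Leaving out 1 array at a time gave 42 to 133 calls. The other settings gave 70 to 133, and with the replicate block, for which same-numbered cultures are taken as pairs, 121 were called, 79 of them among the 100 and 65 of them lower in mGC2_NES, against 42. The block ended 5 of the 30 named calls (Efhd1, Tspan8, Otog, Dync1i1 and Tgfb2) and of the list members that of Plxna1. No called gene reversed under any of these settings. No call had arrays that overlap between the groups, so leaving out or weighting arrays could not turn its sign, and this is no check there. Of the 100 calls 28 passed in all settings that gave them a value, and of the 30 named genes 17 did: Trim13, Epb41l3, Rerg, Cryab, Zfp459, Pttg1, Zfp605, L3hypdh, Ttc30b, Mtus1, Adcy2, Cnmd, Gucy2f, Crnde, Ctsf, Rps21 and Ndufs5. The test of the gap between tumour and NSC differences called 3 probe sets with low ones left out, against 19, and 7 to 13 without 1 array. Called list members numbered 1 with the Y covariate, against 4, and 0 to 9 without 1 array. The medians of the DNA replication and mitosis lists stayed below 0 under every setting, at -0.43 to -0.31 and -0.53 to -0.30. Differences of genes that were not called turned sign: Gfap was -0.067 with array weights, -0.015 after quantile scaling of the 6 arrays and -0.12 to 0.14 without 1 array, Pdgfb was -0.053 to 0.14 without 1 array, and under the Y covariate Cnp was 0.038 and Eif2s3y -0.066. The cause was not tested. The fit on fewer arrays has fewer residual degrees of freedom.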

Other observations

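Further calls are given singly, picked out after their values were seen. Metap1d, a mitochondrial aminopeptidase, read 9.30, 9.07 and 9.23 in mGC2_NES, against 8.43, 8.34 and 8.30 in mGC3_CNP, a difference of 0.84 (limma adjusted p = 0.00177) beside 0.76 between the NSC cultures. Gadd45gip1, a protein of the mitochondrial ribosome, read 9.82, 9.89 and 9.92 in mGC2_NES, against 9.08, 9.09 and 9.19 in mGC3_CNP, a difference of 0.75 (limma adjusted p = 0.00177) beside 0.72 in NSC. Ogdhl, related to an enzyme of the citric acid cycle, read 8.84, 8.64 and 8.89 in mGC2_NES, against 9.58, 9.63 and 9.61 in mGC3_CNP, a difference of -0.82 (limma adjusted p = 0.00328) beside -0.66 in NSC. These 3 calls passed under every alternative, with a highest adjusted p of 0.0230 for Gadd45gip1, 0.0193 for Metap1d and 0.0278 for Ogdhl.

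Other calls were Tnks1bp1, which binds the tankyrase enzymes, at 1.11 beside 1.31 in NSC, and Ndrg4 at 0.88 beside 0.57 in NSC (limma adjusted p = 0.00191 and 0.00191). Rpa3, a subunit of the single-strand DNA binding complex of replication, was called with both of its probe sets, and the one with the smaller p read 10.02, 9.52 and 9.55 in mGC2_NES, against 10.89, 10.58 and 10.75 in mGC3_CNP, a difference of -1.04 (limma adjusted p = 0.0156) beside -0.42 in NSC. Mitf, a transcription factor of pigment cells, read 9.37, 9.48 and 9.26 in mGC2_NES, against 8.43, 8.72 and 8.79 in mGC3_CNP, a difference of 0.72 (limma adjusted p = 0.0210) beside 0.05 in NSC. The calls of Rpa3 and Mitf were lost under some alternatives. The adjusted p rose up to 0.0870 for the Rpa3 probe set with the smaller p, 0.126 for its other probe set and 0.0898 for Mitf. By chromosome, called probe sets made up between 0% of 498 on the autosome 18 and 0.978% of 1022 on chromosome 17.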
